A study of Sus scrofa with 9 samples.

Results

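The miR-183, miR-96 and miR-182 cluster was examined in cultured porcine granulosa cells (PGCs), the somatic cells of the follicle that surround and feed the oocyte. Small RNA was sequenced from PGCs of LandracexYorkshire crossbred sows kept for 12 h in medium without H2O2 (CON), with 100 µM H2O2 (LOS) or with 300 µM H2O2 (MOS), with 3 libraries per group. The cells were primary cultures from follicles that the study describes as healthy, and H2O2 stood in for oxidative stress. The sources do not say whether the 3 libraries of a group came from separate cultures or animals, so an error given here is the spread between libraries and may be technical. Members were taken by name, as the entries whose names hold miR-183, miR-96 or miR-182, all arms and length variants included, and 5 of the 1345 entries of the deposited table matched. The cluster itself was selected on measured values, the levels of miR-96-5p and miR-183 in LOS against CON and in MOS against LOS. For that reason the levels and fold changes of its members are given as a description, without a test.

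The hairpins of miR-183, miR-96 and miR-182 are encoded side by side in mammals and are processed from 1 shared primary transcript. The cluster is best known from hair cells, photoreceptors and other sensory cells, where it is highly expressed, and it also occurs in epithelia, in which the repressor ZEB1 can hold it down together with the miR-200 family. All 3 miRNAs can repress FOXO1, a transcription factor that drives cell death genes in stressed granulosa cells, and in bovine granulosa cells the cluster has been reported to act on FOXO1 and the cell cycle. In the Sscrofa11.1 annotation of RefSeq, MIR183, MIR96 and MIR182 followed each other with no gene listed between them, and UBE2H and NRF1 flanked them.

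The main strands are shown because their seeds, the bases that choose the target mRNA, set the members apart and recur in the comparison with other miRNAs. They are written 5′ to 3′ as the deposited table has them, with T for U and with bases 2 to 8, the seed, in capitals.
ssc-miR-96-5p: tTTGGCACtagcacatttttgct
ssc-miR-182: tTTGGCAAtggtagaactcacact
ssc-miR-183_R-1: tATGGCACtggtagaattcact
Position 8 is where the seeds of miR-96-5p and miR-182 differed, and position 2 is where those of miR-96-5p and miR-183 differed, counted from 1 at the 5′ end. miR-182 and miR-183 differed at both positions and shared 5 of 7 seed bases. Over the whole strand, miR-182 and miR-183 had the same base at 18 of 22 positions counted from the 5′ end without gaps, whereas miR-96-5p matched miR-183 at 13 of 22 and miR-182 at 12 of 23. R-1 in the name of the miR-183 entry marks 1 base missing at its 3′ end against the annotated form. The strands were 23, 24 and 22 nt long.

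The other 2 members were strands from the opposite arm of the hairpins, which are usually degraded once the main strand has been loaded into Argonaute. They are shown because they share no seed with the main strands.
hsa-miR-96-3p_L+1R-1_1ss5CT: cAATTATGtgcagtgccaatat
hsa-miR-183-3p_L-1R+1: tGAATTACcgaagggccataaa
No entry for the opposite arm of miR-182 was among the members. None of the 5 members shared its sequence or all of its 9 values with another entry.

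The depth of the libraries sets how finely these members could be measured. Normalized counts, the authors' scaled read numbers, summed to between 4967112 and 6098582 per library. By group these sums were 5578704 to 6084944 (CON), 5701572 to 6098582 (LOS) and 4967112 to 5117859 (MOS), so every MOS library lay below the others. Low values in each library stepped by a fixed amount, and with 1 read taken as the step at which 80.1 to 85.1% of values under 400 were whole (98.3 to 99.9% at 0.5 reads), the libraries held an estimated 3896863 to 8382479 reads. Depth differed by group, with 4413882 to 6743136 estimated reads per CON library, 6426719 to 8382479 per LOS library and 3896863 to 4660846 per MOS library. Every value of the 5 members came out as a whole number of such reads within 0.01. The granulosa and follicle markers, of which ssc-miR-21_R+1 made up 99.2%, summed per library to 2277783 to 2845281 (CON), 2571710 to 2845592 (LOS) and 1762796 to 1966660 (MOS). ssc-miR-202-5p, a gonadal miRNA, was present in every library at 1187.5 or more, and no entry was named miR-383. A total of 757 entries reached a normalized count of 10 in at least 3 libraries and were tested with limma on log2 of the count plus 1, with Benjamini-Hochberg adjustment over all of them. At 300 µM the calls among all entries split 153 higher and 69 lower than CON, or 200 and 32 with equal library totals, and 143 higher and 82 lower than LOS, or 230 and 44. Equal totals moved the median log2 fold change of all entries to 0.29 in MOS against CON and to 0.32 in MOS against LOS, where it had been 0.07 and 0.08.

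All 3 main strands were moderately abundant, with ranks of 214 for miR-182, 239 for miR-183 and 267 for miR-96-5p by mean normalized count among the 1345 entries. Normalized counts are not per length, and strands of near-equal length can still be captured unequally, so these ranks order entries in the table and not molecules in the cell. Summed over the 3 main strands, the cluster took 0.0145 to 0.0197% of the normalized total of CON libraries, 0.0285 to 0.0325% of LOS libraries and 0.0184 to 0.0265% of MOS libraries. The summed level averaged 975 ± 125 normalized counts for CON, 1813 ± 177 for LOS and 1124 ± 194 for MOS (mean ± SD, n = 3 libraries each). The LOS libraries thus lay above those of CON and MOS, while CON and MOS overlapped. In such bulk samples, fewer cells of a type and less RNA per cell cannot be told apart.

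miR-96-5p, in which seed mutations cause hearing loss in mouse and human, had the widest difference of the 3 at the low dose. CON libraries held 217, 154 and 215 normalized counts, LOS libraries 403, 466 and 566, and MOS libraries 237, 245 and 237. Each LOS library lay above all CON and MOS libraries, and the MOS libraries formed a narrow band just above CON. The mean in LOS was 478 ± 81.8 against 195.5 ± 35.6 in CON, a ratio of 2.45, with a log2 fold change of 1.29 (SE 0.18). In MOS the mean was 239.6 ± 4.41, a log2 fold change of 0.31 (SE 0.18) against CON and of -0.98 (SE 0.18) against LOS. These values rest on 172 to 238 estimated reads per CON library, 550 to 596 per LOS library and 190 to 219 per MOS library. The spread between libraries was 17.1% of the mean in LOS, where counting error alone would give 4.16%, but in MOS it was 1.84%, below the 7.08% of counting error.

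miR-183, whose seed matches neither of its neighbors, took the same shape at a higher level. CON libraries held 329, 257 and 276 normalized counts, LOS libraries 510.1, 697 and 524, and MOS libraries 287, 373 and 291. All LOS libraries exceeded all CON and MOS libraries, and LOS2 stood highest, while MOS overlapped CON. The mean in LOS was 577 ± 104 against 287 ± 37.0 in CON, a ratio of 2.01 and a log2 fold change of 0.996 (SE 0.18). The MOS mean of 317 ± 48.8 gave log2 fold changes of 0.14 (SE 0.18) against CON and -0.86 (SE 0.18) against LOS. Estimated reads came to 260.0 to 306 per CON library, 552 to 822 per LOS library and 230.0 to 293 per MOS library.

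miR-182, the most abundant member and a repressor of FOXO1 and FOXO3, showed the smallest difference of the 3 in LOS against CON and in MOS against LOS. CON libraries held 555, 440.2 and 482 normalized counts, LOS libraries 711, 813 and 749.7, and MOS libraries 605, 697 and 399. All LOS values lay above CON, and the highest MOS library came close to the lowest LOS library. MOS3 had the lowest miR-182 of all 9 libraries, whereas MOS1 and MOS2 exceeded every CON library. The mean in LOS was 758 ± 51.3 against 492 ± 58.0 in CON, a ratio of 1.54 and a log2 fold change of 0.63 (SE 0.20). MOS averaged 567 ± 153, with log2 fold changes of 0.17 (SE 0.20) against CON and -0.45 (SE 0.20) against LOS. Without MOS3 these 2 values were 0.41 and -0.22, so that library set much of the position of miR-182 at 300 µM. The counting intervals of MOS3 (359 to 442 normalized counts) and MOS1 (552 to 661) did not meet (exact Poisson, 95%, counting error only).

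**Figure D1:**
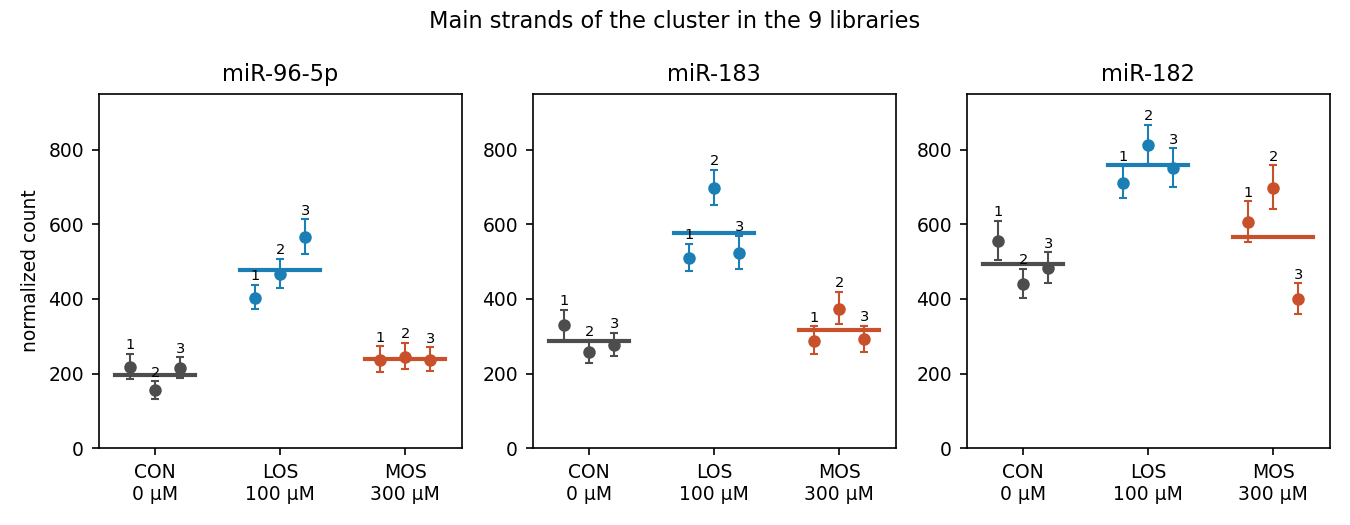
Normalized counts (y axis) of the 3 main strands by group and H2O2 dose (x axis). Each point is a library, numbered by replicate, with its exact Poisson 95% interval for counting error, and the thick bar is the group mean. LOS libraries lie above CON in all 3 panels, and MOS3 is the lowest miR-182 value at 399.

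In the fit over all entries, 2 of the 3 tested members, miR-96-5p and miR-183, passed an adjusted p under 0.05 as higher in LOS than in CON, where 2.51% of the 757 entries did (0.396% as lower and 2.91% in either direction). The groups did not overlap, with LOS higher, for 3 of 3, against 12.4% of all entries in that direction and 8.19% in the other. In MOS against CON 0 of 3 passed, where 20.2% of entries passed as higher, 9.11% as lower and 29.3% in either direction. MOS lay above CON without overlap for 1 of 3, miR-96-5p, against 26.2% of entries, and 15.2% of entries lay below. In MOS against LOS 2 of 3, again miR-96-5p and miR-183, passed as lower, against 10.8% of entries as lower, 18.9% as higher and 29.7% in either direction. MOS lay below LOS without overlap for 3 of 3, against 16.5% of entries, and 24.6% lay above. All of these contrasts were in view when the cluster was chosen, so the counts are given beside the background and nothing is read from them. The LOS call of miR-183 was lost without CON2, CON3 or LOS2, and miR-182 passed in LOS with MOS3 left out or with CON and LOS fitted alone. In MOS against CON miR-182 passed without MOS3 and miR-96-5p passed with equal library totals (log2 fold change 0.52).

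**Figure D2:**
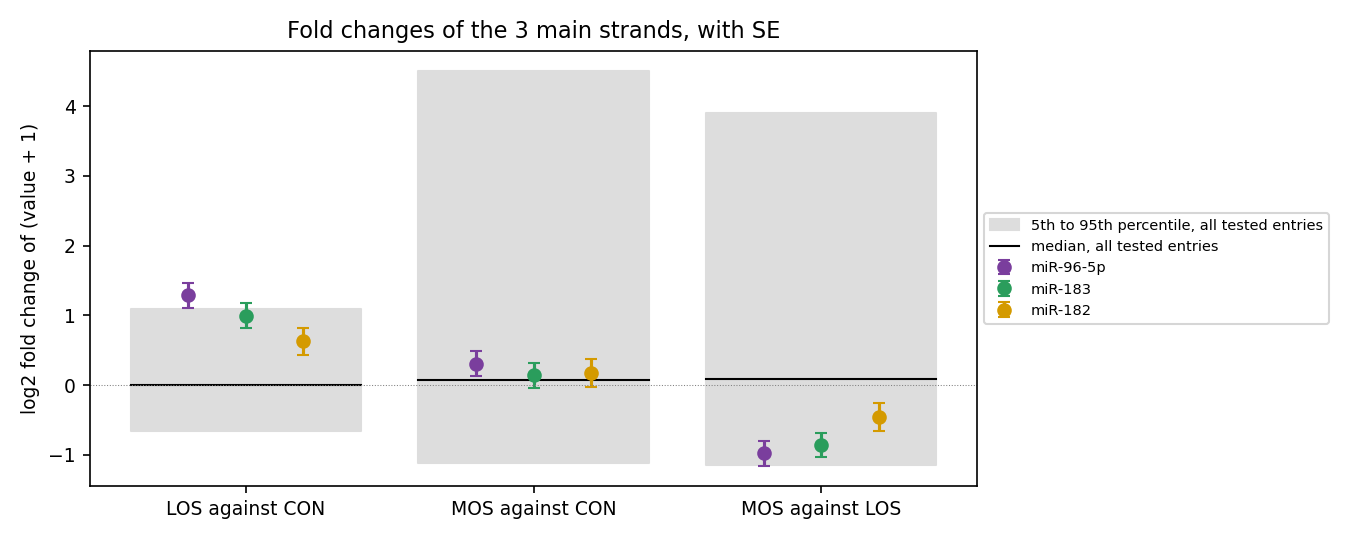
Log2 fold changes of normalized count plus 1 (y axis) of the 3 main strands in each comparison (x axis), as points with SE bars from limma. Grey blocks span the 5th to 95th percentile of the 757 tested entries and black lines mark their median. In LOS against CON miR-96-5p, at 1.29, lies above the grey block, which ends at 1.09.

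The make-up of the cluster within a library does not depend on how the library was scaled, and for miR-182 and miR-96-5p the shares at the low dose did not overlap those of CON. miR-182 took 50.4, 51.7 and 49.5% of the 3-strand sum of CON libraries, 43.8, 41.1 and 40.8% of LOS libraries, and 53.6, 53.0 and 43.0% of MOS libraries. The LOS shares lay below all CON shares, and MOS reached across both. miR-96-5p took 19.7, 18.1 and 22.1% of CON libraries, 24.8, 23.6 and 30.8% of LOS libraries, and 20.99, 18.6 and 25.6% of MOS libraries, so its LOS shares lay above all CON shares. The share of miR-183 overlapped, at 31.7 ± 3.40% in LOS against 29.5 ± 0.958% in CON. These shares come from the same libraries that chose the cluster and carry no test.

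Ratios between single members showed the same order. There were 0.632 ± 0.106 counts of miR-96-5p per count of miR-182 in LOS against 0.396 ± 0.0475 in CON, without overlap (0.567 to 0.754 against 0.351 to 0.446), and 0.446 ± 0.131 in MOS. For miR-182 over miR-183 the ratio was 1.33 ± 0.143 in LOS against 1.72 ± 0.0285 in CON, also without overlap. In CON this ratio varied little (1.69 to 1.75), whereas in MOS it ran between 1.37 and 2.11. miR-96-5p over miR-183 overlapped between LOS (0.669 to 1.08) and CON (0.601 to 0.778).

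**Figure D3:**
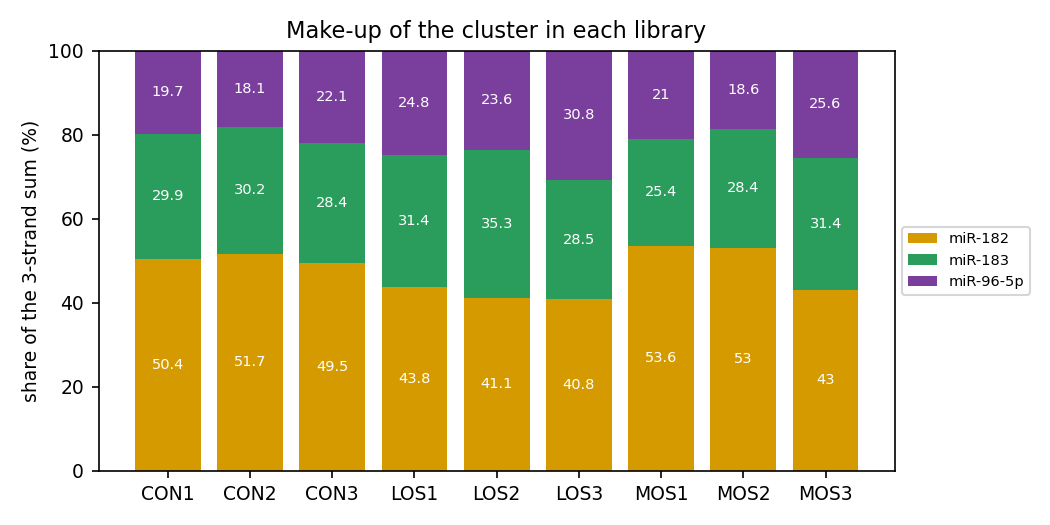
Share of each main strand in the 3-strand sum (y axis, %) for each of the 9 libraries (x axis), as stacked bars with the share printed in each. miR-182 takes 49.5 to 51.7% in the CON libraries and 40.8 to 43.8% in the LOS libraries.

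The opposite-arm strands were near the limit of detection. hsa-miR-96-3p_L+1R-1_1ss5CT was listed at 0 in all CON libraries, at 4.08 normalized counts in LOS1 and 0 in LOS2 and LOS3, and at 0, 5.10 and 5.42 in MOS. These values correspond to 6 reads in LOS1, 4 in MOS2 and 5 in MOS3. hsa-miR-183-3p_L-1R+1 was listed at 0, 3.57 and 0 in CON, at 3.40, 4.24 and 0 in LOS, and at 0 in all MOS libraries, from 4, 5 and 5 estimated reads. A count of 0 allows up to 3 reads, which is 2.04 to 3.82 normalized counts depending on the library, and the exact Poisson 95% intervals of these low values overlapped those of the libraries listed at 0. Neither strand reached 10 in any library and neither was tested. Of the reads of both miR-96 strands, the opposite strand made up 0 of 583 over the CON libraries (exact Clopper-Pearson 95% interval 0 to 0.631%). It made up 0.344% over LOS (6 of 1745, 0.126 to 0.747%) and 1.48% over MOS (9 of 610, 0.677 to 2.78%). For miR-183 the opposite strand made up 0.466% over CON (4 of 858, 0.127 to 1.19%) and 0.469% over LOS (10 of 2134, 0.225 to 0.860%). Over MOS it was 0 of 792 (0 to 0.465%). Summed over all 9 libraries, of which LOS gave most reads, the shares were 0.511% for miR-96 (15 of 2938, 0.286 to 0.841%) and 0.370% for miR-183 (14 of 3784, 0.202 to 0.620%). The intervals and limits cover counting error only.

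miR-96-5p was not the only carrier of its seed. Of the 7 entries with TTGGCAC at bases 2 to 8, 5 were named for miR-1271, a miRNA of a separate gene on another chromosome, and 1 for miR-507b. The seeds of miR-182 and miR-183 occurred in no other entry. The abundant form is shown because its seed is that of miR-96-5p while the rest of the strand differs.
cfa-miR-1271_R+2: cTTGGCACctagtaagcactca
This form was listed at 2848, 2881 and 3738 normalized counts for CON, 3467, 4000.3 and 3607 for LOS, and 4098, 6343 and 3216 for MOS. It exceeded miR-96-5p in every library, and its groups overlapped between LOS and CON and between MOS and CON. hsa-miR-1271-5p_1ss13CT held the same sequence and the same 9 values, and the files do not tell whether these are the same reads listed again or reads divided between both names. The shorter cfa-miR-1271_R-1 averaged 6.59 ± 5.78 for CON, 9.97 ± 2.04 for LOS and 18.2 ± 6.03 for MOS. The remaining carriers did not pass the filter, with highest values of 4.99 for cfa-miR-1271_R+1_1ss9CT, 14.0 for cfa-miR-1271_R+2_1ss15AG and 5.93 for eca-miR-507b_1ss14TA.

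With such shared values counted once, miR-96-5p supplied 7.09, 5.07 and 5.41% of the normalized counts with its seed for CON, 10.4, 10.4 and 13.5% for LOS, and 5.44, 3.69 and 6.82% for MOS. LOS lay above both other groups, and MOS overlapped CON. The cluster was chosen on the level of miR-96-5p in these same libraries, so this order was partly set by that choice and carries no test. Counted at every entry, the mean shares were 3.02 ± 0.573% for CON, 6.08 ± 1.02% for LOS and 2.75 ± 0.830% for MOS. The summed level of the seed, counted once, was 4183 ± 298 in LOS against 3361 ± 530 in CON, and 4818 ± 1623 in MOS. miR-96-5p was thus a minor part of its seed in each library at either way of counting.

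**Figure D4:**
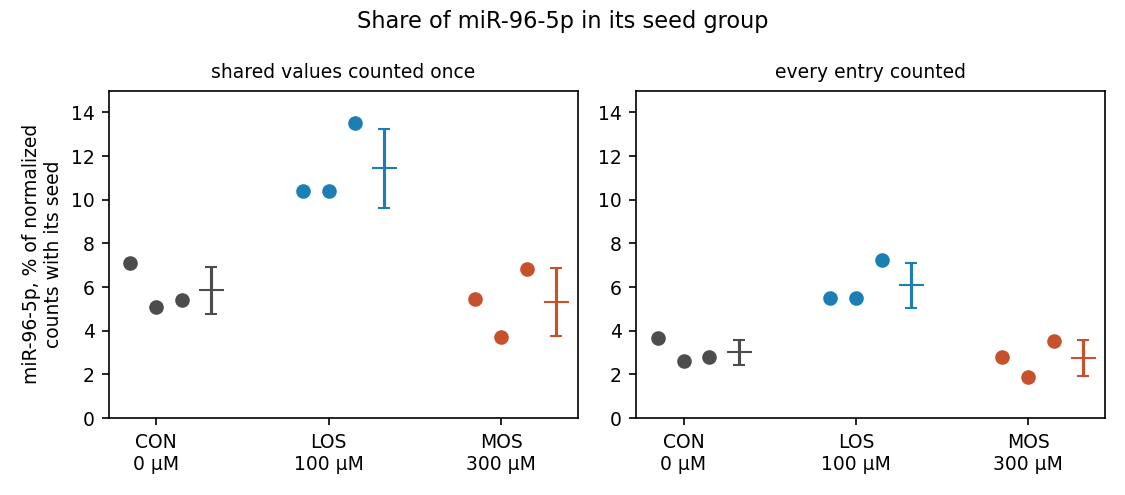
Share of miR-96-5p in the normalized counts of all entries with its seed (y axis, %) by group and dose (x axis). Points are libraries, and the bar beside them is the mean with SD. With shared values counted once (left) LOS libraries lie between 10.4 and 13.5%, above the CON and MOS libraries, and with every entry counted (right) LOS libraries again lie above the others.

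Across the 9 libraries, the entries most like each main strand were ranked among the tested entries by Pearson correlation of log2 values. The libraries share groups and scale, so the coefficients describe likeness in this table and carry no test. The cluster was chosen on the levels of miR-96-5p and miR-183, not of miR-182, in these same libraries. How near the main strands stand to each other is thus partly set by that choice. For miR-183 the nearest entry was miR-96-5p (r = 0.91), and miR-182 was also among its first 5 (r = 0.86). For miR-96-5p the nearest was ssc-miR-146b_R+3 (r = 0.97), a relative of the NF-κB brake miR-146a, which averaged 694 ± 92.4 normalized counts for CON, 1101 ± 119 for LOS and 771 ± 77.5 for MOS. hsa-miR-27a-5p (r = 0.92), the lesser strand of miR-27a, came second at 156.6 ± 11.6 for CON, 552 ± 41.5 for LOS and 253 ± 4.22 for MOS, then miR-183 (r = 0.91), ssc-miR-139-3p (r = 0.86) and hsa-miR-222-5p_L+2R-1 (r = 0.85). miR-182 was outside the first 5 for miR-96-5p, at rank 9 (r = 0.79). The list for miR-183 also held ssc-miR-146b_R+3 (r = 0.90), hsa-miR-27a-5p (r = 0.90) and ssc-miR-139-5p_R+1 (r = 0.82).

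By Pearson correlation miR-182 had partly other neighbors. Nearest to it were hsa-miR-212-3p_R+1 (r = 0.89) and ssc-miR-129a-5p (r = 0.87), followed by miR-183 (r = 0.86), ssc-miR-132 (r = 0.86) and ssc-miR-212 (r = 0.86). miR-132 and miR-212 come from 1 cluster that luteinizing hormone induces in mouse granulosa cells. Their lowest values fell in the same library as that of miR-182: ssc-miR-132 had 1860.5, 1809.9 and 1683 normalized counts for CON, 2767, 2938 and 2782 for LOS, and 2294, 1788 and 1023 for MOS. MOS3 was the lowest of the 9 libraries for ssc-miR-132, as it was for ssc-miR-212 (155, with 495.02 in MOS1 and 480.5 in MOS2). With Spearman correlation 2 of the 5 neighbors of miR-182 stayed among its first 5, ssc-miR-132 at rank 1 and miR-183 at rank 2. miR-96-5p then entered at rank 4, so both other main strands were among the first 5. With equal library totals 3 of the 5 stayed, and miR-183 fell to rank 6.

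**Figure D5:**
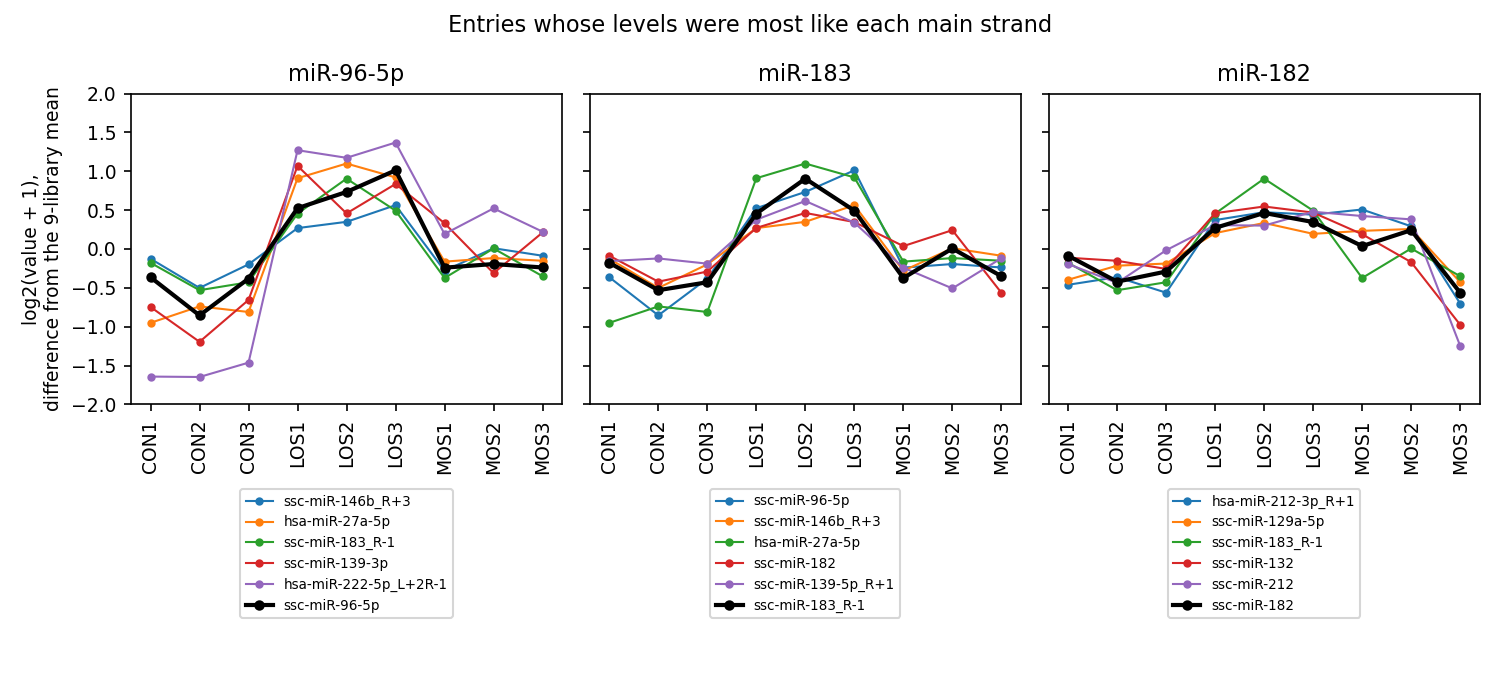
Log2 of normalized count plus 1 (y axis, as the difference from the mean of the 9 libraries) in each library (x axis) for each main strand in black and its 5 most similar entries in color. Lines join the libraries for tracing only. In the right panel miR-182, miR-132 and miR-212 all have their lowest value in MOS3.

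Other miRNAs reported to act on FOXO1, besides the cluster, were listed by number as miR-27a, miR-27b, miR-139, miR-223, miR-370 and miR-411. Both arms of each hairpin entered, so an entry of this list need not itself act on FOXO1. The list was written with earlier results of these data known, so its counts and p-values are a description and no independent test. Of 12 tested entries, 2 were higher and 1 lower in LOS than in CON at an adjusted p under 0.05 in limma, where 2.51% of all entries passed as higher and 0.396% as lower, with a median log2 fold change of 0.09 against 0.00 for all entries. The 2 were hsa-miR-27a-5p (1.81, adjusted p = 3.39e-05) and ssc-miR-139-3p (1.65, adjusted p = 0.0144), both the lesser arms of their hairpins, and the lower entry was ssc-miR-27b-5p_R-1 (-0.98, adjusted p = 0.0296). The most abundant ones, ssc-miR-27b-3p and ssc-miR-27a, had log2 fold changes of -0.06 (SE 0.11) and 0.19 (SE 0.10) in LOS. ssc-miR-139-5p_R+1 had 647 ± 69.6 normalized counts in LOS against 425 ± 9.87 in CON, a log2 fold change of 0.60 with an adjusted p of 0.0545 in limma. In MOS against CON 3 were higher and 2 lower, where 20.2% of all entries passed as higher and 9.11% as lower, at a list median of -0.01 against 0.07, and ssc-miR-27a was one of the higher ones (0.31, adjusted p = 0.0426). In MOS against LOS 0 were higher and 3 lower, where 18.9% and 10.8% of all entries were, at a list median of -0.06 against 0.08: ssc-miR-139-5p_R+1 (-0.73), hsa-miR-27a-5p (-1.12) and hsa-miR-223-3p (-1.20).

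Epithelial miRNAs that ZEB factors repress, the miR-200 and miR-203 families, did not share 1 order of groups among themselves. This list too was written with earlier results of these data known, so its counts and p-values are no independent test. Of 7 tested entries 2 passed as higher in LOS than in CON, hsa-miR-200c-3p (adjusted p = 0.00798 in limma) and hsa-miR-141-3p_R+1 (adjusted p = 0.00182 in limma), where 2.51% of all entries did, and the list's median log2 fold change was 0.16 against 0.00 for all entries. In MOS against CON 4 passed as higher, with mmu-miR-200b-3p_R+1 and bta-miR-200a added, where 20.2% of all entries did. Both added entries reached 10 only in MOS libraries and were tested only for that reason, so nothing is read from their calls. hsa-miR-200c-3p stayed under 10 in every CON library and was tested only through its LOS and MOS values. hsa-miR-141-3p_R+1 reached 10 in CON only in CON2 (12.5) and likewise passed the filter through LOS and MOS. Nothing is therefore read from the calls of these entries against CON either. In MOS against LOS the added mmu-miR-200b-3p_R+1 and bta-miR-200a passed as higher, where 18.9% of all entries did, at a list median of 0.57 against 0.08. The median in MOS against CON was 3.63 as fitted, against 0.07 for all entries, and 1.62 with the 2 entries listed at 0 in all CON libraries set against 3 reads per library. hsa-miR-200c-3p had 0, 4.46 and 9.02 normalized counts for CON, 66.7, 84.8 and 101.5 for LOS, and 172, 155.5 and 71.5 for MOS. Its mean of 133 ± 53.9 in MOS against 84.3 ± 17.4 in LOS did not pass (adjusted p = 0.613 in limma), nor did that of hsa-miR-141-3p_R+1 (adjusted p = 0.454 in limma). The more abundant hsa-miR-203a-3p had its highest mean in LOS, 766 ± 93.5, as did ggo-miR-203b with 72.1 ± 4.56. hsa-miR-203a-3p had log2 fold changes of 0.10 (SE 0.30) in LOS and -0.34 (SE 0.30) in MOS against CON, with 403, 436 and 1028 in MOS1, MOS2 and MOS3. Its shorter form hsa-miR-203a-3p_R-2 had log2 fold changes of -0.07 (SE 0.25) in LOS and 0.63 (SE 0.25) in MOS against CON, neither of which passed. Summed over 12 entries, the epithelial list reached 954 to 1176 normalized counts in LOS against 835 to 896 in CON, and 863 to 1424 in MOS.

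Markers of other cells were set beside the cluster because its members also occur outside the granulosa layer. Neuroendocrine and islet markers, miR-7 and miR-375, summed to 1521 to 1655 for CON, 1605 to 1864 for LOS and 904 to 2064 for MOS, with hsa-miR-375 at or under 12.5 in every library. Leukocyte markers summed to 2459.9 to 2678 for CON, 2389 to 2821 for LOS and 1005 to 2098 for MOS, and neuronal ones to 2837 to 2901, 2700.2 to 2925 and 3336 to 3629 in the same order, with no entry named miR-124 in the table used here. Among the leukocyte, red blood cell, muscle, neuronal, endothelial, stromal and liver lists no entry passed in LOS against CON, against 2.91% of all entries. In MOS against CON 20.2% of all entries passed as higher and 9.11% as lower. The tested leukocyte entries had 1 higher and 2 lower of 4 there (median log2 fold change -0.89), and the neuronal 4 higher and 1 lower of 7. The stromal had 1 higher and 2 lower of 8, and the granulosa 1 higher and 3 lower of 14. The red blood cell list had 1 higher of 2, the muscle list 1 lower of 2, and the liver entry was higher. Among the neuronal entries, efu-miR-9-3p_R-1, hsa-miR-9-3p and mmu-miR-9-3p shared their highest, lowest and mean values. They thus repeat 1 miRNA in the neuronal counts and sums. In MOS against LOS, where miR-96-5p and miR-183 were lower, 18.9% of all entries passed as higher and 10.8% as lower. Lower there were 4 granulosa, 2 leukocyte, 2 stromal, 1 muscle and 1 neuronal entries. Higher were 1 granulosa, 1 neuronal and the liver entry. The 2 endothelial and 2 neuroendocrine entries tested passed in neither of these comparisons. The liver marker ssc-miR-122_R-2 had 10.4 to 20.4 normalized counts in LOS against 3.57 to 6.32 in CON, and 22.8 to 64.8 in MOS. It reached 10 only in LOS and MOS libraries and was tested only for that reason, so nothing is read from its call against CON. The part of these lists in the levels of the cluster was not tested.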

How the data were processed

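Per the labels and the study's methods, small-RNA libraries were made from TRIzol RNA with a TruSeq kit, and ACGT101-miR removed junk, adapter dimers and other RNA families. Unique sequences of 18 to 26 nt were matched with BLAST to miRBase 21, allowing length variants and 1 mismatch. The deposited values are a signal, normalized counts made by the authors, with a formula and genome build not given in the sources used here. Low values were mostly whole multiples of a step, but the smallest were fractions of a read, so no count model was run and read numbers are estimates. All 9 per-sample columns were used.

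Entries that reached 10 in 3 or more libraries entered limma 3.58.1 (R 4.3.3, trend) as log2(value + 1), with 1 term for group and the 9 libraries fitted together, and p-values were adjusted by Benjamini-Hochberg over 757 entries. The fit was checked on simulated data with known changes. Summaries used Python 3.11.15, numpy 2.4.6, pandas 2.3.3 and scipy 1.17.1, and figures matplotlib 3.10.9. No replicate pair in a group agreed within sampling noise (chi-square per degree of freedom of 41.3 or more). Named are all members, entries with a member's seed, the 5 entries most like each main strand, and the most abundant 4 of the FOXO1 and epithelial lists, and list entries that passed, which were chosen after their values were seen. Members and lists, with their rules, were chosen with earlier results of these data known. Alternatives were equal totals, median-of-ratios factors, pseudocounts of 0.5 and 10, no filter, a minimum of 50, the 6 libraries of a comparison, no trend, a replicate block and each library left out.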

Additional observations from a re-analysis of the deposited data

How the results depend on the processing

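The log2 fold changes of the 3 main strands and of their sum kept their sign under every alternative that was run, in all 3 comparisons. With equal library totals the differences in MOS against LOS were smaller, at -0.74 for miR-96-5p, -0.62 for miR-183, -0.22 for miR-182 (-0.45 as deposited) and -0.46 for the sum, and the sum in MOS against CON came to 0.41, against 0.20 as deposited. Leaving out each library in turn gave 1.13 to 1.41 for miR-96-5p, 0.85 to 1.10 for miR-183 and 0.55 to 0.72 for miR-182 in LOS against CON, and 0.00 to 0.41 for miR-182 in MOS against CON. The number of entries that passed in LOS against CON was 22, or 44 with CON and LOS fitted alone and 14 (without LOS1) to 37 (without MOS3) with a library left out. In MOS against CON it was 222, or 137 with a minimum of 50 and 94 (without MOS2) to 283 (without MOS3), with 125 without MOS1 and 146 without CON2. In MOS against LOS it was 225, or 146 with a minimum of 50 and 113 (without MOS2) to 270 (without MOS3), with 145 without MOS1. The cause of these shifts was not tested. With the replicate block 19, 208 and 215 entries passed, and no member gained or lost its call. The labels number libraries alike across groups, but deviations of same-numbered libraries correlated at -0.08 to 0.18 over 757 entries, so the numbers were not taken as pairs. Differently numbered libraries gave -0.25 to 0.14. With 3 libraries per group such correlations cannot tell whether libraries shared a culture or a batch. Of the 5 entries most like each strand, 2 stayed for miR-182 with Spearman and 3 with equal totals, and 3 stayed for miR-183 with Spearman.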
